A study of Mus musculus with 30 samples.

Results

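Untreated mafosfamide-resistant lymphoma lines were compared with drug-sensitive parental cells that had been in mafosfamide for 48 h. The arrays were chosen by their labels alone: the lines R100, R500, R1000 and R4000 at 0 nM (1 array each, 4 in all) and the 5 parental arrays at 48 h of 750 nM drug, which make 9 of the 30 arrays in the series. Every array held RNA from an Eµ-Myc; Cdkn2a-/- B-cell lymphoma of C57BL/6J background, in which the Eµ enhancer drives Myc in B-lineage cells. The transgene and the deletion were therefore carried by lines and parental cells alike. R100, R500, R1000 and R4000 had been taken from that parental line at 100, 500, 1000 and 4000 nM, successive steps of a single escalation, and cannot count as separately derived lines. All cultures were grown on irradiated Cdkn2a-/- mouse embryonic fibroblasts. How long the lines had been out of drug, and whether dead cells were removed at 48 h, is not given in the sources used here. A further 3 arrays, of R500, R1000 and R4000 after 24 h at 750 nM, are given as values on the side. They differ from the 48 h arrays in both line and time in drug. Below, values of the untreated lines are listed in the order R100, R500, R1000, R4000, values of the 48 h arrays in the order of culture number 1 to 5, and values of treated lines in the order R500, R1000, R4000. All levels are deposited log2 expression values, and a difference is the mean of the 4 lines minus the mean of the 5 parental arrays, so a difference of 1 is 2-fold.

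Mafosfamide is a form of cyclophosphamide that is active in culture. Its active metabolite crosslinks DNA, and the crosslinks are known to activate checkpoint kinases and p53, which in turn induces genes of cell cycle arrest, repair and apoptosis. Cdkn2a encodes p16INK4a and p19ARF, and the latter protects p53 from degradation after oncogene activation, not after DNA damage. Aldehyde dehydrogenases, glutathione conjugation, efflux pumps and DNA repair are the textbook routes by which cells withstand this class of drug. The comparison asks which transcript levels are the same in cells selected to live with the drug and cells in their second day of exposure, and which are not.

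The labelled cell type was borne out by its markers. Cd79a, a signalling chain of the B-cell receptor, lay between 13.27 and 13.36 in the lines and between 13.24 and 13.62 in the 48 h arrays, and its partner Cd79b lay between 13.52 and 13.72 on all 9. Pax5, the B-lineage commitment factor, differed by 0.14 and Ptprc (CD45) by -0.07. Myc read 13.24, 13.10, 13.19 and 13.16 in the lines and 13.08, 13.16, 12.97, 13.09 and 12.99 at 48 h, a difference of 0.12 with a 95% interval from -0.02 to 0.25. Cdkn2a lay between 7.09 and 7.62 on the 9 arrays, with no difference between groups beyond their spread (difference 0.11, SE 0.11), but which part of the locus its probes cover was not checked. Mean levels of 20 T and NK cell genes (6.45 to 6.55 in the lines and 6.43 to 6.54 at 48 h) and of 7 erythroid genes (7.70 to 7.81 and 7.71 to 7.82) overlapped between the groups, as did those of 23 myeloid and Fc receptor genes (6.94 to 7.20 and 6.995 to 7.28).

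Some arrays stood apart or went against their labels. The parental arrays fell into cultures 1 and 2 and cultures 3 to 5, by the numbers in the array names of the sample descriptions. At 6 h and 12 h these numbers differ from the biological replicate numbers in the titles. That an equal number at different times marks the same culture is an inference. On the 18 parental arrays from 0 to 24 h (6 and 12), 456 of 19937 genes (2.29%) did not overlap between these sets, and 53 (0.266%) did so with a mean difference of at least 2-fold. All 53 separated the same way in the 48 h arrays, against 6442 genes (32.3%) that separated there in either direction. The partition was noticed in these data, so differences against cultures 1 and 2 and against cultures 3 to 5 are given for those named genes where the call or the size turned on it. The second irregularity concerned the resistant lines. In 27 genes the untreated array labelled R100 lay at least 2-fold from the mean of the other 3 lines, and for 21 of these the treated array labelled R4000 lay nearer to R100 than to the other 3. The treated array labelled R500 did so for 9 of the 27, the one labelled R1000 for 10, and the 48 h arrays for 1 to 7. Over all 19937 genes, the deviations of the treated R4000 array from the other treated arrays correlated with those of untreated R100 at r = 0.21 and with those of untreated R4000 at r = -0.08. Treated R1000 matched untreated R4000 (r = 0.29) more than untreated R1000 (r = 0.06), whereas treated R500 matched untreated R500 (r = 0.29). These correlations are descriptions across genes of single arrays that share probes and normalisation. The mean of the 4 untreated lines does not depend on which of them is which, but the order of the lines does. The slope over the 4 lines is given for both orders. The slope without R500 and the counts of strict rises and falls are given only as labelled.

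Most of the transcriptome was shared. The 95% interval of the difference lay within 2-fold for 19706 of 19937 genes (98.8%), and for 8748 of the 8877 genes (98.5%) whose mean over the 9 arrays was at or above 8. It lay within 0.5 on the log2 scale for 18425 genes (92.4%). The median of all differences was 0.02 and their median SE was 0.0808. The lines varied among themselves nearly as much as the parental cultures did, since the median SD was 0.105 over the 4 lines and 0.121 over the 5 parental arrays, and 0.0994 and 0.0882 within cultures 1 and 2 and cultures 3 to 5. Large spreads were more frequent at 48 h, where 370 genes had an SD of at least 0.5, against 50 genes over the lines. Taking arrays in pairs, the median absolute difference per gene was 0.0926 to 0.154 between lines, 0.0772 to 0.154 between 48 h arrays and 0.0899 to 0.178 between a line and a 48 h array, so these ranges overlapped.

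A total of 28 genes (0.14% of those tested) differed between the lines and the 48 h arrays at an adjusted p under 0.05 (limma, Benjamini-Hochberg), 7 of them higher in the lines (0.0351%) and 21 lower (0.105%). None of the 28 overlapped between the groups, which was the case for 942 genes overall (4.72%), 494 higher (2.48%) and 448 lower (2.25%). At an unadjusted p under 0.05, 2312 genes differed (11.6%), 1161 higher (5.82%) and 1151 lower (5.77%). The number of calls rested on single arrays: no gene was called without R100, without R500, without R1000 or without the fourth parental array (1694 to 1855 and 1950 genes at an unadjusted p under 0.05), 2 were called without the third and 11 without the first parental array. It also depended on the cultures used, with 278 genes called against cultures 3 to 5 (1.39%) and 767 against cultures 1 and 2 (3.85%). Of the 28 genes, 28 remained called in the former comparison and 27 in the latter. All 28 kept their direction under each of 19 alternative settings. Settings that only left arrays out could not reverse genes whose groups do not overlap, so the direction was no check there.

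**Figure D1:**
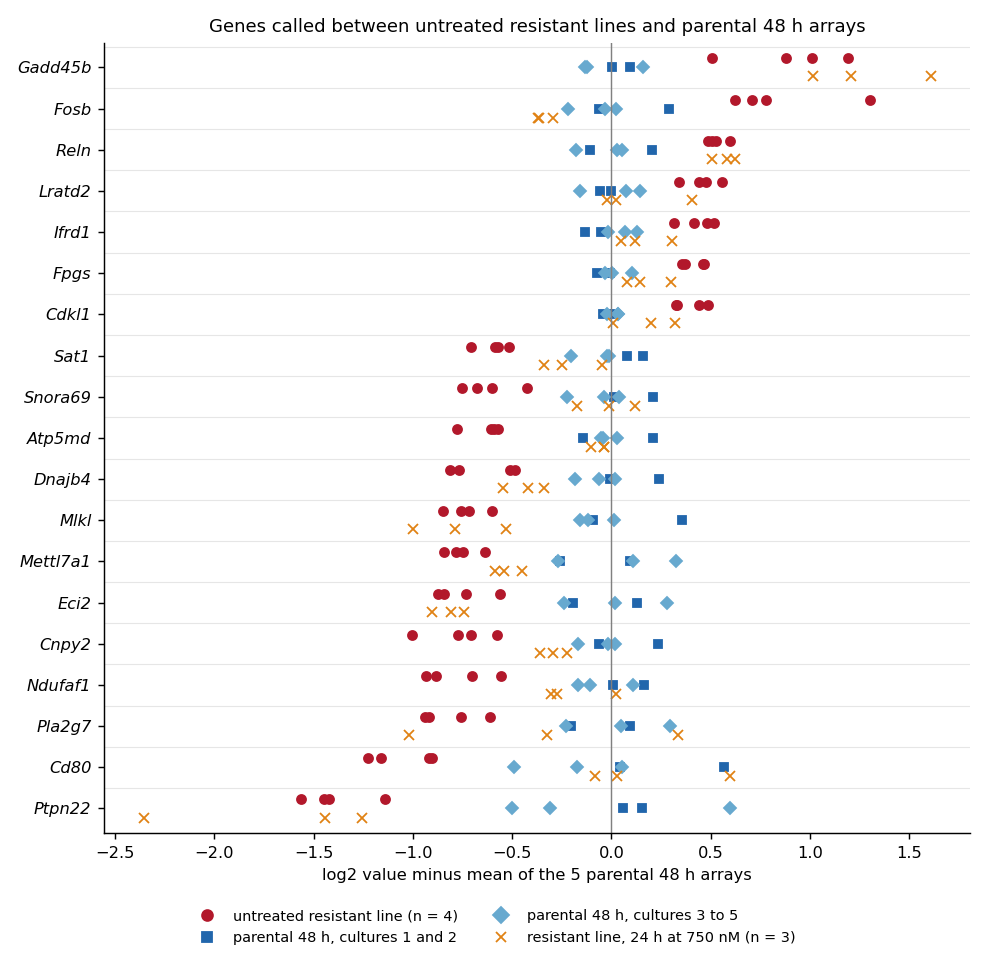
Single-array values of the 19 called genes that the naming rule selects, as the log2 value minus the mean of the 5 parental 48 h arrays (x axis). Red circles are the 4 untreated lines, blue squares and diamonds the 48 h arrays of cultures 1 and 2 and of cultures 3 to 5, and orange crosses the 3 lines after 24 h at 750 nM; the red circles clear the 48 h arrays in every gene, while the crosses of Fosb lie below the 48 h arrays and those of Cd80 lie at their level.

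Gadd45b, a stress sensor that activates MAP kinase signalling and takes part in DNA demethylation and repair, showed the largest rise. It stood at 11.34, 11.47, 11.65 and 10.97 in the lines and at 10.46, 10.55, 10.33, 10.62 and 10.33 at 48 h. All 4 lines were above all 5 parental arrays, with R4000 the lowest of the lines. Means were 11.36 ± 0.29 (SD, n = 4) and 10.46 ± 0.13 (SD, n = 5). The difference was 0.90 (SE 0.12, 95% interval 0.63 to 1.17, adjusted p = 0.0375), a 1.86-fold higher level. Under drug the lines read 11.47, 11.66 and 12.07, a difference of 1.28 from the same 48 h arrays (adjusted p = 0.0195), and this comparison of treated lines called 13 genes in all (0.0652%), 8 higher (0.0401%) and 5 lower (0.0251%). Gadd45b was thus higher in untreated lines, and in lines at 24 h of drug, than in parental cells at 48 h of drug.

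Fosb, a member of the AP-1 family and an immediate early gene, was 1.81-fold higher in the lines. Its values were 8.85, 8.69, 8.78 and 9.37 in the lines and 8.01, 8.36, 8.04, 7.85 and 8.10 at 48 h (difference 0.85, SE 0.14, adjusted p = 0.0491). Means were 8.93 ± 0.31 (SD, n = 4) and 8.07 ± 0.19 (SD, n = 5). R4000 was the highest of the lines, and the difference was 0.70 without it. In the treated lines Fosb stood at 7.78, 7.70 and 7.71, below all 48 h arrays (difference -0.34, adjusted p = 0.427). Untreated and treated lines thus lay on opposite sides of the 48 h cells for this gene. Its relative Fos differed by 0.69 with overlapping groups (adjusted p = 0.231), and none of the other 19 measured genes of the immediate early list was called (median difference 0.02). The Fosb call was lost when all 30 arrays shared the estimate of the spread (adjusted p = 0.415).

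The promoters of these leading risers are shown, and both carry the GC box, the letters GGGCGG that Sp-type factors can bind. The sequences are the 250 bases before the start in RefSeq on GRCm38.p6, 5′ to 3′ on the gene's strand, with each GC box on either strand in capitals. Gadd45b lies at chr10:80929841-80930090 on the plus strand and Fosb at chr7:19310046-19310295 on the minus strand.
Gadd45b: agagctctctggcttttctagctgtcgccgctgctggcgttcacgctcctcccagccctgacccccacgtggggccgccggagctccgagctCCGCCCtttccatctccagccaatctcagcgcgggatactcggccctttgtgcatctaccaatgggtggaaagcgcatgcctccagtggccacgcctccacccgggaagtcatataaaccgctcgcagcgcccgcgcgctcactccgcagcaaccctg
Fosb: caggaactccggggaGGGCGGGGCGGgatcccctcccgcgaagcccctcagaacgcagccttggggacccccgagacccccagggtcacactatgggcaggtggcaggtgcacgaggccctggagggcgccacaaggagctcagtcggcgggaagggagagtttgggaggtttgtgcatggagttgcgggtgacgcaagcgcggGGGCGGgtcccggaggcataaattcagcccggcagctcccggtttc
Gadd45b held 1 GC box and Fosb 3, of which a pair overlap. Of the called genes with a promoter in the table, the letters occurred in 6 of 6 that were higher and 10 of 16 that were lower, against 32.9% of 27025 promoters of that length. The E-box CANNTG, bound by E proteins and Myc, occurred in 5 of 6 and 8 of 16, against 66.0% of all. The comparison set held every gene with a promoter and was not matched to the called genes for expression level. Gadd45b and Fosb were picked for display after their values were seen, and a match of letters is a description of the sequence, not a binding site.

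The other 5 genes called higher changed by less than 1.5-fold. Reln, encoding the extracellular matrix protein reelin, read 11.42, 11.46, 11.53 and 11.44 in the lines, 11.14, 10.83, 10.76, 10.99 and 10.96 at 48 h, and 11.52, 11.44 and 11.56 in the treated lines (difference 0.53, adjusted p = 0.0429). The lines differed little among themselves here, with an SD of 0.05 over the untreated arrays (n = 4). Fpgs, folylpolyglutamate synthase, which retains folates and antifolate drugs inside the cell, stood at 11.16, 11.07, 11.16 and 11.05 against 10.63, 10.69, 10.70, 10.80 and 10.67 (difference 0.41, adjusted p = 0.0401). Treated lines read 10.84, 10.999 and 10.77 for Fpgs, below the untreated lines and at or just above the 48 h level. Ifrd1, a stress-responsive transcriptional coregulator, was higher by 0.43, the kinase Cdkl1 by 0.39 and Lratd2 by 0.45. A second probe set of Lratd2 gave 0.16.

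Among the 21 lower genes, Ptpn22 showed the largest difference. It encodes a tyrosine phosphatase that restrains antigen receptor signalling in lymphocytes. The lines read 7.59, 7.61, 7.47 and 7.90 and the 48 h arrays 9.09, 9.19, 9.63, 8.73 and 8.54, so the highest line (7.90) lay below the lowest parental array (8.54). Means were 7.64 ± 0.18 (SD, n = 4) and 9.04 ± 0.43 (SD, n = 5). Ptpn22 was 2.63-fold lower in the lines (difference -1.39, SE 0.19, 95% interval -1.80 to -0.98, adjusted p = 0.0367). It stayed low in the treated lines at 7.78, 7.59 and 6.68 (difference -1.69, adjusted p = 0.0918). Against cultures 1 and 2 the difference was -1.499, and against cultures 3 to 5 it was -1.32. With all 30 arrays in the fit its adjusted p was 0.0699.

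Cd80, the B7-1 costimulatory ligand that B cells present to T cells, was the other gene called with a difference above 2-fold. It stood at 7.17, 7.48, 7.24 and 7.49 in the lines and at 8.44, 8.96, 8.22, 8.45 and 7.91 at 48 h (2.07-fold lower, difference -1.05, SE 0.17, adjusted p = 0.0491). The treated lines read 8.31, 8.42 and 8.996, in the range of the 48 h cells or just above it (difference 0.18, adjusted p = 0.943). Relative to the 48 h arrays, Cd80 was therefore low only in the untreated lines, while Ptpn22 was low in untreated and treated lines. The treated lines were sampled at 24 h and the parental cells at 48 h, so line and time in drug cannot be told apart here. Cd86, which encodes the second B7 ligand, differed by -0.46 with overlapping groups (adjusted p = 0.371). A second probe set of Cd80 gave -0.56, and the call was lost with the mean of the probe sets (adjusted p = 0.0608).

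Further lower genes had smaller differences. Mlkl, the executor of necroptosis, read 6.86, 6.82, 6.72 and 6.97 against 7.48, 7.93, 7.59, 7.46 and 7.41 (difference -0.73, adjusted p = 0.0385), and 6.57, 7.04 and 6.78 in treated lines. Mlkl was lower in all 7 arrays of resistant lines, the treated ones at 24 h of drug, than in the parental arrays at 48 h. Ndufaf1, an assembly factor of respiratory complex I, stood at 10.06, 10.44, 10.11 and 10.30 against 11.16, 11.004, 11.10, 10.83 and 10.89 (difference -0.77, adjusted p = 0.0346). Atp5md, a subunit of the ATP synthase, read 12.43, 12.26, 12.44 and 12.46 against 12.89, 13.24, 12.98, 13.06 and 12.99 (difference -0.64, adjusted p = 0.0346), and its other probe sets gave -0.42 and -0.53. Treated lines reached 12.93 to 12.996, the 48 h level. None of the 29 measured subunits of the respiratory chain list was called (0.14% of all genes were), all were within 2-fold (98.8% of all genes), and their median difference was -0.06.

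Sat1, the rate-limiting enzyme of polyamine catabolism and a known p53 target, stood at 9.01, 9.13, 9.14 and 9.20 against 9.80, 9.87, 9.69, 9.70 and 9.51 (difference -0.60, adjusted p = 0.0346). The treated lines read 9.38, 9.47 and 9.67, above every untreated line and up to the 48 h range. Pla2g7, which hydrolyses oxidised phospholipids, differed by -0.81 (adjusted p = 0.0385), with widely spread treated lines at 9.23, 9.89 and 8.53. Eci2, an enzyme of fatty acid oxidation, was low in untreated lines (difference -0.75, adjusted p = 0.0429) and treated lines (-0.82, adjusted p = 0.0539). The remaining called genes were Cnpy2 (-0.77), Mettl7a1 (-0.75), the chaperone cofactor Dnajb4 (-0.64), the small nucleolar RNA Snora69 (-0.61), Haao of the kynurenine pathway (-0.55), Sapcd1, Banp, Pigx, Spaca9, AI413582, Tmem64 and Ccdc69 (-0.50 to -0.35) and the clone 2610524H06Rik (-0.80). Spaca9 had the smallest p of all, with the lines between 7.38 and 7.48 and the 48 h arrays between 7.85 and 7.91.

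A difference of 2-fold did not by itself give a call. Means differed by at least 2-fold for 25 genes, 7 higher and 18 lower in the lines, of which 2 were called, 14 did not overlap and 11 overlapped. In 19 of the 25 the 48 h arrays of cultures 1 and 2 did not overlap those of cultures 3 to 5, as in 32.3% of all genes. Lxn, latexin, a carboxypeptidase inhibitor, read 7.56, 8.61, 8.44 and 8.95 in the lines against 10.13, 9.90, 9.89, 9.73 and 9.38 and just missed the threshold (difference -1.42, adjusted p = 0.0526). Its treated lines were lower still at 8.07, 8.18 and 7.78 (-1.80, adjusted p = 0.0102). Untreated, Lxn was called against cultures 1 and 2 (-1.63, adjusted p = 0.00901) and not against cultures 3 to 5 (-1.28, adjusted p = 0.0621). Dynlt3, a dynein light chain, gave differences of -1.47 untreated (adjusted p = 0.0904) and -1.96 treated (adjusted p = 0.0294). Here the untreated lines were called against cultures 3 to 5 (-1.79, adjusted p = 0.0215) and not against cultures 1 and 2 (-0.98, adjusted p = 0.133).

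The p53 targets, induced in many cell types by DNA damage, leaned as a list towards lower values in the untreated lines than at 48 h. Of 39 measured targets 33 lay below 0, with a median difference of -0.18 against 0.02 for all genes, and the median stayed between -0.26 and -0.10 over the 19 alternatives. Cd80 was called, 13 were lower at an unadjusted p under 0.05 (5.77% of all genes were) and none was higher. Sat1, called lower above, was not on the list. Like the other lists used here, the p53 list was chosen with earlier results of these data known. Its lean is therefore a description and not an independent test. The list mean was 8.86, 8.94, 8.85 and 9.02 in the lines and 9.26, 9.42, 8.99, 9.10 and 8.995 at 48 h, so that R4000 overlapped cultures 3 and 5. In the treated lines the mean was 9.04, 9.09 and 9.24 and the median difference from the 48 h arrays was -0.00. The list as a whole thus stood at the 48 h level in treated lines, which were sampled at 24 h of drug.

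Members of the list did not move as a block. Zmat3, an RNA-binding effector of p53, stood at 7.61, 7.76, 7.62 and 7.72 in the lines, at 8.23, 8.49, 8.21, 8.13 and 7.95 at 48 h and at 9.02, 8.92 and 9.54 in the treated lines. The 3 groups did not overlap, although neither difference passed the test (-0.52, adjusted p = 0.0674, and 0.96, adjusted p = 0.0728). Psrc1, a p53-regulated microtubule-associated protein, read 8.33, 8.85, 8.70 and 9.16 against 9.49, 9.54, 9.45, 9.43 and 9.26 (difference -0.68, adjusted p = 0.0829; -0.81 and called, adjusted p = 0.0408, without the array labelled R4000). Dglucy differed by -0.71 (adjusted p = 0.0707). Ccng1, cyclin G1, differed by -0.33 (adjusted p = 0.288), by -0.55 against cultures 1 and 2 (adjusted p = 0.0148) and by -0.18 against cultures 3 to 5 (adjusted p = 0.265). Zmat3 and Dglucy were called against either set, Psrc1 against cultures 1 and 2 (-0.76, adjusted p = 0.0397) and not against cultures 3 to 5 (-0.62, adjusted p = 0.118). In contrast Mdm2, the ubiquitin ligase that limits p53, differed by -0.03 with an interval from -0.45 to 0.39. The 48 h arrays themselves ranged from 10.22 to 11.33, the second culture being highest. The p53-inducible BH3-only gene Bbc3 (PUMA) differed by -0.15 (-0.31 to 0.01) and the antiproliferative gene Btg2 by -0.30 (-0.56 to -0.04), both within 2-fold.

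**Figure D2:**
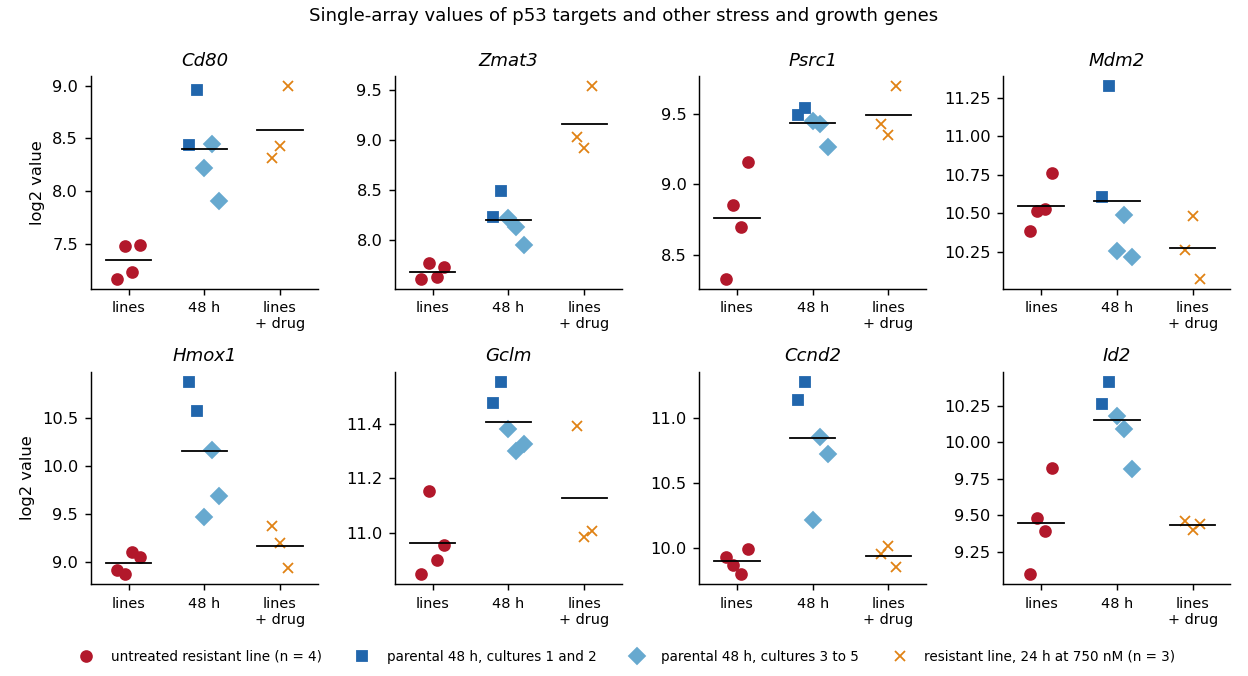
Log2 values (y axes, each panel with its own range) of 8 genes on the 4 untreated lines, the 5 parental 48 h arrays and the 3 lines after 24 h at 750 nM; horizontal bars are group means. Zmat3 steps up from lines to 48 h cells to treated lines, Cd80 and Psrc1 are low only in the untreated lines, and the treated lines lie below all 48 h arrays for Ccnd2, Id2 and Hmox1.

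Genes of the NRF2 oxidant response leaned towards lower values in the untreated lines, without a call. Of 23 measured, 18 lay below 0, 9 were lower at an unadjusted p under 0.05 (5.77% of all genes were) and none was higher, and the median was -0.14 (-0.16 to -0.11 over the alternatives). Hmox1, heme oxygenase, stood at 8.92, 8.87, 9.10 and 9.05 in the lines against 10.88, 10.58, 9.47, 10.16 and 9.69 (difference -1.17, adjusted p = 0.0956). The lines lay between 8.87 and 9.10 while the 48 h arrays ranged from 9.47 to 10.88, and the difference was called against either set of cultures alone (-1.75, adjusted p = 0.000149, and -0.79, adjusted p = 0.0304). Nqo1, a quinone reductase, read 6.35, 6.51, 6.16 and 6.66 against 8.05, 8.21, 7.02, 7.35 and 6.51 and overlapped (difference -1.01, adjusted p = 0.238). Against cultures 1 and 2 alone Nqo1 was called (-1.71, adjusted p = 0.000151), against cultures 3 to 5 it was not (-0.54, adjusted p = 0.242). Gclm, the modifier subunit of the first enzyme of glutathione synthesis, differed by -0.44 (adjusted p = 0.0635) and the ferritin chain Ftl1 by -0.68 (adjusted p = 0.0703). Nfe2l2, the gene of NRF2 itself, differed by -0.33 (adjusted p = 0.187). Gclm, Ftl1 and Nfe2l2 were called against cultures 1 and 2 (-0.55, -0.85 and -0.49) and not against cultures 3 to 5 (-0.37, -0.57 and -0.23).

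Feeder cell markers moved with these genes among the 48 h arrays. Mean levels of 29 measured fibroblast genes were 8.44, 8.45, 8.30 and 8.49 in the lines and 8.98, 9.15, 8.01, 8.52 and 8.42 at 48 h, highest in cultures 1 and 2, where Hmox1, Nqo1 and the p53 targets were highest too. None of the 29 was called, and their median difference was -0.16 against all 48 h arrays, -0.58 against cultures 1 and 2 and 0.09 against cultures 3 to 5. Acta2, smooth muscle actin, read 11.20, 11.17, 10.93 and 11.33 against 12.02, 12.25, 10.02, 11.05 and 11.06, and the secreted protease inhibitor Timp1 differed by -0.80 (adjusted p = 0.424). In bulk RNA, fewer cells of a type and less RNA per cell cannot be told apart. With the fibroblast mean as a covariate, differences of Hmox1 (-0.94, adjusted p = 0.00516), Gclm (-0.41), Zmat3 (-0.47) and Dglucy (-0.63) were called and kept their direction, as did the p53 median (-0.14). That fit called 252 genes in all, against 28 without the covariate. Since the covariate was highest in cultures 1 and 2, it cannot be told apart from the culture set. Whether feeder RNA accounts for these differences was not tested.

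No gene of the textbook routes of resistance to alkylating drugs was called, and with so few calls in all this does not set these genes apart. None of the 20 aldehyde dehydrogenases, 19 drug efflux transporters, 27 crosslink repair genes, 27 excision repair and alkylation reversal genes or 22 checkpoint genes was called in either direction (0.14% of all genes were). All intervals of the repair, checkpoint and efflux genes lay within 2-fold, as did 98.8% of all genes, and all of the crosslink repair and checkpoint genes lay within 0.5 on the log2 scale (92.4% of all genes). Rad54l, a recombination motor protein, differed by -0.22 (95% interval -0.38 to -0.05), the nuclease subunit Eme1 by -0.20 (-0.35 to -0.05) and the deubiquitinase Usp1 by 0.15 (0.01 to 0.30). Mgmt, which reverses alkyl damage directly, differed by 0.10 (-0.11 to 0.31).

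Among the drug-handling genes, Abcb1a and Abcb1b, which encode P-glycoproteins, differed by 0.16 (0.01 to 0.31) and 0.33 (-0.07 to 0.74). Abcb1b reached 7.93, 8.08 and 8.16 in the treated lines against 6.91 to 7.69 at 48 h, a difference that was not called (0.76, adjusted p = 0.305). Aldh1a1, the aldehyde dehydrogenase best known for detoxifying cyclophosphamide, read 6.23, 6.35, 6.10 and 6.27 in the lines and 7.30, 6.93, 6.14, 6.23 and 6.26 at 48 h. Its lines matched cultures 3 to 5 (difference 0.03) and lay below cultures 1 and 2 (-0.88, adjusted p = 0.00205), the cultures with the highest fibroblast gene means. Aldh3a1 differed by 0.07 (-0.11 to 0.25). Of 29 glutathione genes 19 lay below 0, with a median of -0.09 and none called. Of the 29, 4 were not within 2-fold (Gsta4, Gstm4, Gstk1 and Slc7a11), while 98.8% of all genes were. Of the aldehyde dehydrogenases only Aldh3b1 was not within 2-fold. Gstm4 (0.79) and Aldh3b1 (-0.68) followed the culture numbers: against cultures 1 and 2 alone they differed by 0.15 and -0.14, and against cultures 3 to 5 by 1.21 and -1.03 (adjusted p = 0.000128 for each).

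**Figure D3:**
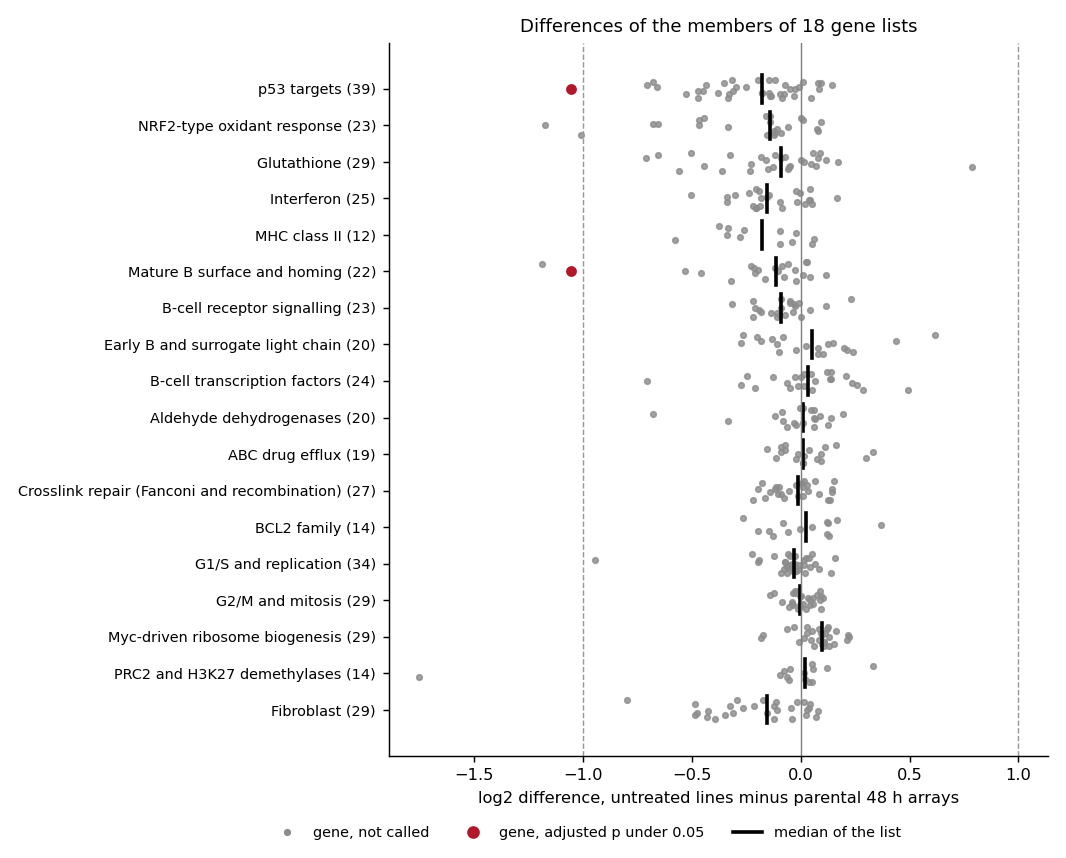
Log2 differences between the mean of the 4 untreated lines and the mean of the 5 parental 48 h arrays (x axis) for every measured member of 18 gene lists, with the number of members in brackets. Points are genes, red where the adjusted p was under 0.05, vertical bars are list medians and dashed lines mark 2-fold; repair, efflux, mitotic and BCL2 family genes gather near 0, while the medians of p53 targets, NRF2 genes, interferon genes and MHC class II genes lie at -0.18, -0.14, -0.15 and -0.18.

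No listed apoptosis regulator was called (0.14% of all genes were). Of 14 measured BCL2 family genes 13 were within 2-fold (98.8% of all genes were). Among them were Bcl2 (-0.27, interval -0.53 to -0.01) and the p53-inducible Pmaip1 (NOXA, -0.20, interval -0.36 to -0.04). All 19 death receptor and caspase genes were within 2-fold, among them Apaf1 (-0.18). The exception in the BCL2 family was Bcl2l1, which encodes the antiapoptotic protein BCL-XL. It stood at 9.41 in R100 and at 7.58, 7.61 and 7.55 in the other lines, against 7.73, 7.79, 7.52, 7.66 and 7.62 at 48 h. In the treated arrays it read 7.65, 7.51 and 10.43, the high value being that of the array labelled R4000. Untreated R100 lay 1.83 above the mean of the other 3 lines on the log2 scale, and Bcl2l1 was high only there and in the treated array labelled R4000. With 1 array per line this has no replicate check.

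Of 24 measured B-lineage transcription factors none was called (0.14% of all genes were), 23 were within 2-fold (98.8%), and 6 were higher at an unadjusted p under 0.05 (5.82%). Tcf3, which encodes the E proteins of the E2A locus, differed by 0.05 (-0.10 to 0.21), Spi1 (PU.1) by -0.05 (-0.20 to 0.11), Ebf1 by 0.26 (0.09 to 0.43) and the Ikaros family member Ikzf3 by 0.24 (0.10 to 0.38). The gene not within 2-fold was Id2, whose product sequesters E proteins. Id2 read 9.10, 9.48, 9.40 and 9.83 in the lines against 10.26, 10.42, 10.18, 10.09 and 9.82 at 48 h, overlapping through R4000 and the fifth culture (difference -0.70, adjusted p = 0.0922; -0.83 without R4000, adjusted p = 0.0646). It was called against cultures 1 and 2 (-0.89, adjusted p = 0.0114) and not against cultures 3 to 5 (-0.58, adjusted p = 0.127). In the treated lines it stood at 9.46, 9.40 and 9.44 (-0.72, adjusted p = 0.0769). Bach2, a repressor that delays plasma cell differentiation, lay higher in all 4 lines at 10.96, 11.23, 11.15 and 11.05 against 10.44, 10.66, 10.38, 10.78 and 10.76 (0.49, adjusted p = 0.0770), and the plasma cell factor Xbp1 lay lower (-0.33, adjusted p = 0.0904). Bach2 was called against cultures 1 and 2 only (0.55, against 0.46 for cultures 3 to 5) and Xbp1 against cultures 3 to 5 only (-0.39, against -0.25 for cultures 1 and 2).

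Surface and antigen presentation genes leaned towards lower values in the lines. Of 22 mature B surface genes 17 lay below 0 (median -0.11, Cd80 called), of 12 MHC class II presentation genes 10 (median -0.18) and of 25 interferon-stimulated genes 19 (median -0.15, 10 at an unadjusted p under 0.05 against 5.77% of all genes). These medians kept their sign in all 19 alternatives. The interferon median was -0.08 without the first parental array, -0.25 against cultures 1 and 2 and -0.10 against cultures 3 to 5. No interferon gene was called. Irgm1, an interferon-induced GTPase, read 9.54, 9.78, 9.75 and 9.77 against 10.12, 10.04, 10.17, 10.03 and 9.87 (-0.34, adjusted p = 0.131). The chemokine receptor Cxcr4 differed by -0.21 and the adaptor Blnk by -0.18, each with an interval within 0.5. Early B genes had a median of 0.05 over 20 members, 0.14 against cultures 1 and 2 and -0.07 against cultures 3 to 5. The surrogate light chain genes Igll1 (-0.13, interval -0.74 to 0.48) and Vpreb1 (-0.20, interval -0.58 to 0.18) were within 2-fold, with R100 the highest of the lines in both (11.03 and 7.81). Lef1 differed by 0.44 (adjusted p = 0.225) and the germinal centre repressor Bcl6 by 0.49 (adjusted p = 0.212).

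None of 29 G2/M genes and 34 G1/S and replication genes was called, and all but 1 were within 2-fold (98.8% of all genes were), among them Cdk1 (-0.14). The exception, Ccnd2, a D-type cyclin, stood at 9.94, 9.87, 9.80 and 9.996 in the lines, at 11.14, 11.28, 10.22, 10.86 and 10.73 at 48 h and at 9.95, 10.01 and 9.86 in the treated lines. All 7 arrays of resistant lines lay between 9.80 and 10.01, below all 48 h arrays (untreated difference -0.95, adjusted p = 0.0674; called against each set of cultures alone, adjusted p = 0.000151 and 0.0393). Over the 48 h arrays Ccnd2 ran in the same order as the fibroblast gene mean. With that mean as a covariate the Ccnd2 difference was -0.77 (limma, adjusted p = 0.000447). Whether feeder RNA contributes to the Ccnd2 values was not tested. Myc-driven ribosome biogenesis genes leaned slightly higher, 24 of 29 above 0 with a median of 0.10, among them Pes1 and Nop58 (each 0.22). The Polycomb repressive complex 2 genes Ezh2 (0.05, interval -0.07 to 0.18), Suz12 (0.06, -0.08 to 0.19) and Mtf2 (0.02, -0.11 to 0.14) and the H3K27 demethylase Kdm6a (0.02, -0.20 to 0.25) were level. Kdm6b, the stress-inducible demethylase, was higher in every line (0.33, adjusted p = 0.176). All 12 DNA methylation genes were within 0.5 (92.4% of all genes), Tet3 (0.28, and 0.09 at its second probe set) being the highest. Ddit3 (CHOP), an effector of the unfolded protein response, differed by -0.35 (adjusted p = 0.0674). Bex6 (0.04) and the quiescence-associated cyclin Ccng2 (-0.19) were within 0.5.

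The 3 genes with the largest mean differences, Uty, Fabp5 and Rragb, split the parental cultures, and 7 of the 25 genes past 2-fold were among the 53 culture genes. Over these 53 genes, chosen on the 0 to 24 h arrays, all 4 lines lay nearer to the 48 h level of cultures 1 and 2 for 30 genes, nearer to cultures 3 to 5 for 8 and on both sides for 15. By line the number nearer to cultures 1 and 2 was 31, 38, 35 and 44, and 31, 33 and 27 in the treated lines. Over the wider set of 456 genes the split was 106, 134 and 216, and the lines did not take the same side: 163, 229, 165 and 277 genes were nearer to cultures 1 and 2 by line, and 134, 137 and 130 in the treated lines. Uty, the Y-linked relative of Kdm6a, read 5.32, 5.39, 5.23 and 5.42 in the lines and 5.62, 5.42, 8.51, 8.04 and 7.87 at 48 h, so its difference of -1.75 (adjusted p = 0.291) became -0.18 against cultures 1 and 2 and -2.80 against cultures 3 to 5. The 6 other measured genes of the Y-linked list were within 2-fold, as were 98.8% of all genes. Only 3 of the 7 measured genes of that list remained when genes with a mean under 6 were left out. Srsy, a Y-linked gene outside the list, was not within 2-fold (difference 1.28, interval -1.78 to 4.34) and varied widely in both groups.

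Rragb, a Rag GTPase of the amino acid sensing pathway, stood at 7.77, 7.85, 7.76 and 7.70 in the lines, at 7.21 and 7.21 in cultures 1 and 2 and at 5.46, 5.59 and 5.33 in cultures 3 to 5. The fatty acid binding protein gene Fabp5 read 10.23, 10.04, 9.93 and 9.75 against 9.57, 9.08, 7.24, 7.80 and 7.83. For both genes the lines were above all 48 h arrays but closer to cultures 1 and 2 (Rragb 0.56 and 2.31, Fabp5 0.66 and 2.37 against cultures 1 and 2 and cultures 3 to 5). The kappa variable segment Igkv4-91, in contrast, lay between the sets at 9.30, 10.32, 10.52 and 9.90 against 9.12, 9.30, 11.96, 12.28 and 12.16, with R100 at the upper end of cultures 1 and 2. Variable segments share sequence with one another, so their values may mix related segments. Tyrobp, an adaptor of activating receptors, was lower in all lines at 8.35, 8.33, 8.42 and 8.36 against 8.75, 8.62, 9.43, 9.27 and 8.87 (-0.63, adjusted p = 0.139, and called against cultures 3 to 5 alone, -0.83, but not against cultures 1 and 2, -0.32), whereas treated lines read 9.36, 9.05 and 9.26.

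**Figure D4:**
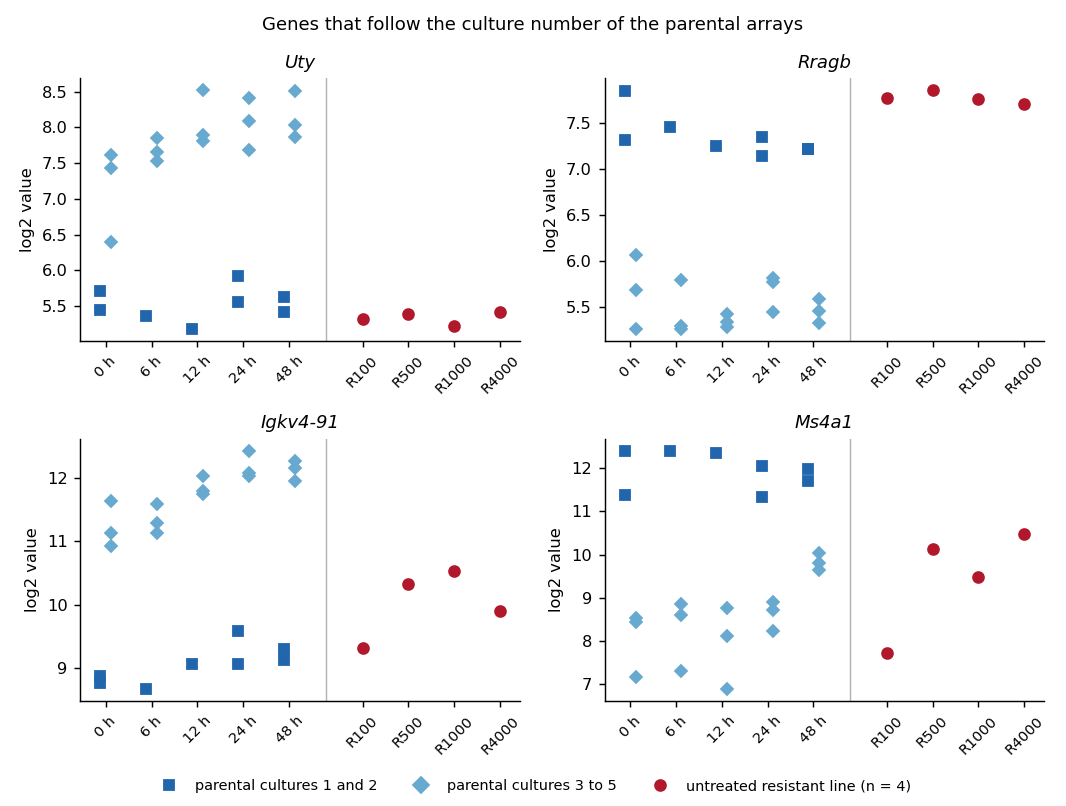
Log2 values (y axes) of Uty, Rragb, Igkv4-91 and Ms4a1 on the 23 parental arrays at 0, 6, 12, 24 and 48 h, split into cultures 1 and 2 (squares) and cultures 3 to 5 (diamonds), and on the 4 untreated lines (red circles). The parental sets stay apart at every time, and the lines sit with cultures 1 and 2 for Uty and Rragb, between the sets for most values of Igkv4-91, and from 7.71 to 10.49 for Ms4a1.

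Among themselves the lines differed mainly through R100. At least 2-fold from the mean of the other 3 lines were 27 genes in R100 (9 above, 18 below), 1 in R500, 2 in R1000 and 11 in R4000. Besides Bcl2l1, R100 was high for F13a1, coagulation factor XIII subunit A (7.52 against 6.24, 6.38 and 5.90), and for the chromatin organiser Satb1 (8.14 against 6.59, 7.24 and 6.47), and the treated array labelled R4000 read 7.68 and 8.30 for them. It was low for Ms4a1, which encodes CD20, at 7.71 against 10.14, 9.49 and 10.49, and for the B-cell surface protein Ly6d at 8.22 against 9.49, 9.32 and 10.82. At 48 h Ms4a1 read 11.70, 11.99, 10.04, 9.65 and 9.82, so the difference was -2.39 against cultures 1 and 2 (adjusted p = 0.0424) and -0.38 against cultures 3 to 5 (adjusted p = 0.820). Mgat4c, a glycosyltransferase gene, stood at 7.48, 6.27, 6.64 and 5.45 in the lines and between 5.01 and 5.25 at 48 h (difference 1.30, adjusted p = 0.128), so that R4000 was the line nearest to the parental level; treated lines read 6.53, 6.86 and 7.89, highest in the array labelled R4000.

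No gene was called for a slope on the order of selection dose. The slope over R100, R500, R1000 and R4000 gave 0 called genes (limma), with 1402 at an unadjusted p under 0.05 (7.03%). The spread in this fit came from the lines around their slope and also from the 48 h arrays. For Uty, which splits the parental cultures, the slope SE was 0.41 although the SD over the 4 lines was 0.09. The 0 calls therefore do not show that the lines lack such an order. With the arrays labelled R100 and R4000 exchanged, Mgat4c was called (slope 0.64 per step, SE 0.05, adjusted p = 0.00390) and 1498 genes had an unadjusted p under 0.05. Mgat4c lay at least 2-fold from the other lines in both exchanged arrays (1.36 in R100 and -1.34 in R4000). It was among the R100-specific genes in which the label mismatch was described, so this call cannot test the exchange. Without R500, the ciliary gene Drc7 was called (slope -0.63 per step, adjusted p = 0.0126), with 8.53 in R100 and 6.80, 7.12 and 6.67 in the other lines, so this call rests on R100. A strict rise over the 4 lines as labelled was seen in 1573 genes (7.89%) and a strict fall in 1330 (6.67%), but only 7 and 2 of them spanned 2-fold or more.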

How the data were processed

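The values are log2 expression levels from Affymetrix Mouse Gene ST 1.0 arrays that the authors made from the scans with RMA in the affy package and deposited as a table of 30 arrays. The processing notes of the submitters name the mm9 build, and scan-level files were not used here. Of 34760 probe sets, 21640 carry 1 gene symbol, 1321 several and 11799 none. Where a gene had several probe sets (954 of 19937 genes), the one brightest on average across the 30 arrays was kept. Medians of the 9 arrays lay between 7.28 and 7.39 over genes.

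Groups came from the sample labels. The arrays are labelled as biological replicates, but each line is 1 array, so p-values measure only the spread between these arrays, and their number limits the precision. Differences were fitted in limma 3.58.1 (lmFit and eBayes, R 4.3.3) on the 9 arrays and adjusted over all genes by Benjamini-Hochberg at 0.05. The slope over lines was fitted alike on the same 9 arrays with a term for group, and the treated lines on their 3 arrays and the 5 parental arrays. The members and gene lists were chosen with earlier results of these data known. Named genes were the 12 largest called differences each way among genes that did not overlap (predicted models and immunoglobulin segments passed over), the 5 largest called slopes each way, up to 4 members of each of 44 lists with the smallest p, and 29 fixed names, of which 27 were measured. The missing names were Trp53 and Cdkn1a. R100-specific, culture-split and uncalled 2-fold genes were named after their values were seen. Scripts were tested on simulated data. Figures used matplotlib 3.10.9.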

Additional observations from a re-analysis of the deposited data

Results flagged for a closer look

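Among 214 groups of 4 or 5 arrays checked over the named genes, 7 held an array whose gap to its nearest neighbour was large for the range of its group. Chance alone would mark about 1 in 20 such groups. In the untreated lines Bcl2l1 stood at 9.41 in R100 with the nearest line at 7.61, Vpreb1 at 7.81 in R100 with the nearest at 7.25, and Irgm1 at 9.54 in R100 with the nearest at 9.75. Atp5md stood at 12.26 in R500 with the nearest line at 12.43. In the parental 48 h arrays Dglucy stood at 7.85 in the second culture with the nearest array at 7.43, Satb1 at 7.33 in the third culture with the nearest at 6.57, and Drc7 at 6.93 in the fourth culture with the nearest at 6.73. The array labelled R100 accounts for 3 of the 4 marks among the lines. Bcl2l1 was named after its R100 value was seen, so its mark was no check. With 7 of 214 groups marked, against about 1 in 20 by chance, the marks do not set R100 apart.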

How the results depend on the processing

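All 28 called genes kept their direction under each of 19 settings. Where arrays were only left out, or only the estimate of the spread changed, this was fixed in advance because their groups do not overlap. The count of calls ranged widely. It was 484 with array weights (154 higher and 330 lower), 252 with the fibroblast mean as a covariate (74 and 178), 87 with a trended and robust prior (24 and 63), 278 without cultures 1 and 2 (105 and 173) and 767 without cultures 3 to 5 (123 and 644). The number called higher was 11 with genes of mean under 6 left out, and the number called lower was 11 with all 30 arrays in the fit, where 10 of the 28 remained called. Leaving out 1 array gave 0 to 31 calls (0 to 9 higher and 0 to 24 lower), and adjusted p-values of the 28 genes were 0.0801 to 0.234 in the 4 cases with 0 calls. The slope called 0 to 1 gene when 1 array was left out and 1 with R100 and R4000 exchanged. Treated lines gave 28 calls with median centring and 0 to 13 with 1 array left out. It was 0 without the treated array labelled R1000 (1128 genes at an unadjusted p under 0.05, limma), 1 without the third and 3 without the fourth parental array, 5 without R500 and 6 without R4000. Igkv4-91 reversed to 0.80 without cultures 3 to 5. The culture split, the exchanged order and the alternatives for treated lines were chosen after seeing the data. The median of the fibroblast genes changed sign in 2 settings. The counts within 2-fold moved by less than 1.5 times in every setting. The cause of these shifts was not tested. No paired analysis was possible because the lines all carry replicate number 1, so the groups share only 1 number.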
